A study of Mus musculus with 16 samples.

Results

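The 16 mice of this muscle RNA-seq series were compared here by the cage in which they were housed, as the labels record it. All 16 libraries entered, each from 1 mouse. Cage 675 held 4 mice, cage 676 held 4, cage 677 held 3 and cage 678 held 5. All were male mice, recorded as 12 weeks old and fed a high-fat diet (HFD) over 12 weeks, and skeletal muscle was snap frozen. By their labels, 10 mice (*Npr1*+/-) carried 1 disrupted allele of *Npr1*, the receptor gene for atrial natriuretic peptide, and 6 littermates (*Npr1*+/+) carried none. The disrupted allele came from the B6.129-Npr1tm1Gar/J line backcrossed to C57BL/6J. The disrupted allele is carried from the germ line and so is present in every cell type. Cage 675 held 2 *Npr1*+/- and 2 *Npr1*+/+ mice, cage 676 held 3 and 1, cage 677 held 1 and 2, and cage 678 held 4 and 1. The genotype label and body weight were covariates of the tests of cage, except where a fit is named as cage alone or by other covariates and in the exact tests of body weight, library totals and genotype. The labels do not say in what else the cages differed. Litter, day and hour of killing, and order of dissection or extraction cannot be told apart from cage in these data, and which muscle was taken is not given in the sources used here.

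Expression is given in CPM (counts over the TMM-scaled total of the library, on the usual CPM scale), and mice are named by cage and by a replicate number in accession order, which is only a name. Differences are on the log2 scale and compare 1 cage with the equally weighted mean of the other 3, at the same genotype label and body weight. The 4 such differences of a gene come from the same 16 mice and are not independent of each other. P-values come from edgeR's quasi-likelihood test and were adjusted by the Benjamini-Hochberg method over the 14331 genes tested, with a threshold of 0.05.

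Genes that respond within minutes to hours fill much of the account below. Immediate early genes such as *Fos*, *Nr4a1* and *Klf4* need no new protein to be switched on, and in muscle they follow contraction, handling, adrenergic and hormonal signals. Glucocorticoids raise a partly overlapping set that includes *Ddit4*, *Cdkn1a* and *Tsc22d3*, several of which are also induced by the FOXO transcription factors. The muscle clock adds a daily cycle, in which *Arntl* and *Nfil3* peak at the opposite time of day to *Dbp* and the *Per* genes, and the proteins of *Dbp* and *Nfil3* act in opposite directions at the same DNA element, the D-box.

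Of 11 genes that differed between cages in at least 1 test below, 4 had a match in a window of 250 bases before a RefSeq start site (build GRCm38.p6) to a motif read by one of these factor families. Of all 27025 genes with such a window, 23.9% held at least 1 of the 5 motifs in at least 1 window, and of the 10467 of them tested here 26.2% did, so nothing is read from the 4 of 11. They are printed here because the genes carry the results below, with the matched letters in capitals. The motifs, searched on both strands, were the E-box CACGTG of clock and other bHLH factors (in 6.02% of all 32851 such windows), the cyclic AMP response element core TGACGT (6.47%), the FOXO core TGTTTAC (3.17%), the glucocorticoid receptor-type half-site pair ACANNNTGT (5.84%) and the D-box TTANGTAA (2.06%). The windows are on chr2:19657481-19657730 (plus strand) for *Otud1*, chr2:32424067-32424316 (minus strand, the start site farthest inside the gene of 3) for *Slc25a25*, chr4:55532476-55532725 (minus strand) for *Klf4* and chr14:8309780-8310029 (minus strand, a start site inside the gene) for *Fam107a*.
Otud1: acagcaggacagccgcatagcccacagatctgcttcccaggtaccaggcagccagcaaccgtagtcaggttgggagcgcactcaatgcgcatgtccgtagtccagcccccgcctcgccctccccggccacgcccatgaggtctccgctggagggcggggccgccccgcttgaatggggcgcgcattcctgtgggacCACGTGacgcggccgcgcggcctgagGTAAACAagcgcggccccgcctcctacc
Slc25a25: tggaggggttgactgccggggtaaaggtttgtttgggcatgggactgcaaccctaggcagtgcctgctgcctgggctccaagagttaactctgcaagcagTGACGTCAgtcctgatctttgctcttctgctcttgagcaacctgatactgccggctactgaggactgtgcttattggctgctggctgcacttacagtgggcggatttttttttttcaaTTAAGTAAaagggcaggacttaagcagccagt
Klf4: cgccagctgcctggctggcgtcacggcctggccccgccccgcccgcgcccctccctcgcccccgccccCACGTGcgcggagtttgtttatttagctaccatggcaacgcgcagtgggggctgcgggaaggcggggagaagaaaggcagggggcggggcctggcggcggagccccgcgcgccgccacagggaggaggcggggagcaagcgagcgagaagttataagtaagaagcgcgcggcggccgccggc
Fam107a: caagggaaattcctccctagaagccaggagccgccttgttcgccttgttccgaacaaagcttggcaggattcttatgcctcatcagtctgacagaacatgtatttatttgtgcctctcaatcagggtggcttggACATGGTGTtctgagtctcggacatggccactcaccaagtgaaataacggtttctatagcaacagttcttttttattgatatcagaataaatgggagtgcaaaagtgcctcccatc
In *Otud1* the capitals mark an E-box from 54 to 49 bases before the start site and a FOXO core on the reverse strand from 28 to 22 bases before it. In *Slc25a25* they mark a pair of overlapping cyclic AMP response element cores on opposite strands (150 to 143 bases before the start) and a D-box (32 to 25). *Klf4* held an E-box from 182 to 177 bases before its start, and *Fam107a* a glucocorticoid receptor-type match from 116 to 108. Counting only the start site nearest the gene's 5′ end, 2 of the 11 genes held an E-box, 1 a FOXO core and none the other motifs. A match is a run of letters in a window and no measure of binding.

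Library totals ran from 15273472 to 59682677 counts, and the deepest library was replicate 2 of cage 677. Totals differed between cages (exact permutation test over 50450400 assignments, two-sided, p = 0.0203, n = 16 mice), but the threshold was not reached without that mouse (p = 0.236) or with ranked totals (p = 0.119). Body weight was 47.5 ± 5.89 g (SD, n = 4) in cage 675, 47.2 ± 1.31 g (n = 4) in cage 676, 43.8 ± 4.35 g (n = 3) in cage 677 and 41.8 ± 3.41 g (n = 5) in cage 678. Cage accounted for 34.1% of its variance (exact permutation p = 0.161), and without replicate 2 of cage 675, at 40.1 g the lightest of its cage, the exact p was 0.0224. The genotype label did not differ detectably between cages (exact test over 8008 assignments, p = 0.633). Library numbers are the digits that end the column names given in the labels, which do not say what they stand for. They ran from 12 to 20 in cage 675, from 1 to 8 in cage 676, from 2 to 10 in cage 677 and from 4 to 22 in cage 678. Cage 675 thus did not overlap in them with cage 676 or with cage 677. *Npr1* itself ranged from 9.83 to 22.2 CPM in mice labelled *Npr1*+/- and from 10.4 to 13.4 CPM in those labelled *Npr1*+/+. These ranges overlap, and the highest value was in a mouse labelled *Npr1*+/-. The paper reported lower *Npr1* mRNA in muscle of *Npr1*+/- mice. The labels were not tested against these counts, and genotype is used here as labelled. *Npr1* did not pass the test for cage (adjusted p = 0.67, edgeR). The skeletal muscle defining genes *Acta1*, *Ckm* and the other 8 of that list were present in every library, and the 37 genes of the mitochondrial chromosome are listed at 0 in every library.

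The first principal component of expression held 43.7% of the variance, and its highest scores were spread over 3 cages, at 79.9 for replicate 3 of cage 678, 66.1 for replicate 4 of cage 675 and 42.8 for replicate 2 of cage 677. The lowest score, -53.9, was that of replicate 4 of cage 678, so cage 678 held both ends of the component.

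**Figure D1:**
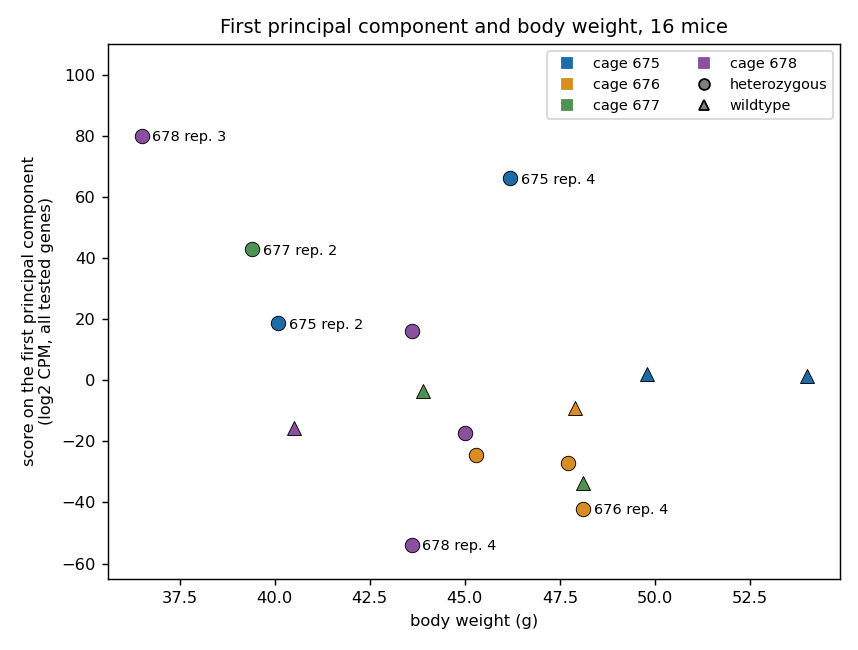
Score of each of the 16 mice on the first principal component of log2 CPM over all tested genes (vertical axis) against body weight in g (horizontal axis), coloured by cage and shaped by genotype label. The highest score, 79.9, is that of the lightest mouse (36.5 g), and cage 678 spans the whole range from -53.9 to 79.9.

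In the test of all 4 cages together, 4 genes passed (0.0279% of 14331), namely *Otud1*, *Arrdc2*, *Slc25a25* and *Cdkn1a*. At an unadjusted p under 0.05 there were 1055 genes (7.36%), where evenly spread p-values would give 717. With cage alone in the model the share was 3.95%, below what evenly spread p-values would give. So the count of genes past the adjusted threshold was small in this fit, and it moved with single mice and with the model. DESeq2 gave 78 genes. Leaving out 1 mouse at a time gave between 0 and 869 genes, with 869 without replicate 2 of cage 675 and 0 without replicate 1 of cage 676 or without replicate 2 of cage 678. *Otud1* passed in 14 of those 16 fits, *Slc25a25* in 5, and *Arrdc2* and *Cdkn1a* in 4 each. With library number as a covariate (adjusted p = 0.0601 for each) and in limma-voom (adjusted p from 0.0673 to 0.0761) the 3 genes other than *Otud1* missed the threshold, and *Arrdc2* also missed it with cage alone (0.0884). *Otud1* missed it with library size as the only scaling (adjusted p = 0.0541) and among *Npr1*+/- mice alone (0.574), as did the other 3.

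*Otud1* (ENSMUSG00000043415, chr2:19657752-19660583) encodes a deubiquitinase and showed the clearest difference between cages (adjusted p = 0.013). In cage 675 it stood at 18.4, 34.9, 16.3 and 30.0 CPM in replicates 1 to 4. In cage 676 the 4 values were 82.6, 87.0, 30.7 and 52.2 CPM. Cages 677 and 678 were low, with 9.34, 14.4 and 8.92 CPM in the first and 14.97, 11.03, 9.42, 7.02 and 10.4 CPM in the second. No mouse of cages 677 and 678 reached the level of any mouse of cages 675 and 676, whose ranges overlapped each other. The means were 63.1 ± 26.6 CPM in cage 676 (SD, n = 4) and 10.6 ± 2.90 CPM in cage 678 (n = 5). Cage 676 lay 2.06 ± 0.23 (SE) above the other cages (edgeR, adjusted p = 0.0019) and cage 678 lay 1.48 ± 0.23 below them (difference of -1.48, adjusted p = 0.034), a call that held in 3 of 16 fits leaving out 1 mouse. The difference of cage 676 passed in all 16 fits that left out 1 mouse. It ranged from 1.87 to 2.34 over all 32 alternatives tried, but it did not pass with library number as a covariate or among *Npr1*+/- mice alone.

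**Figure D2:**
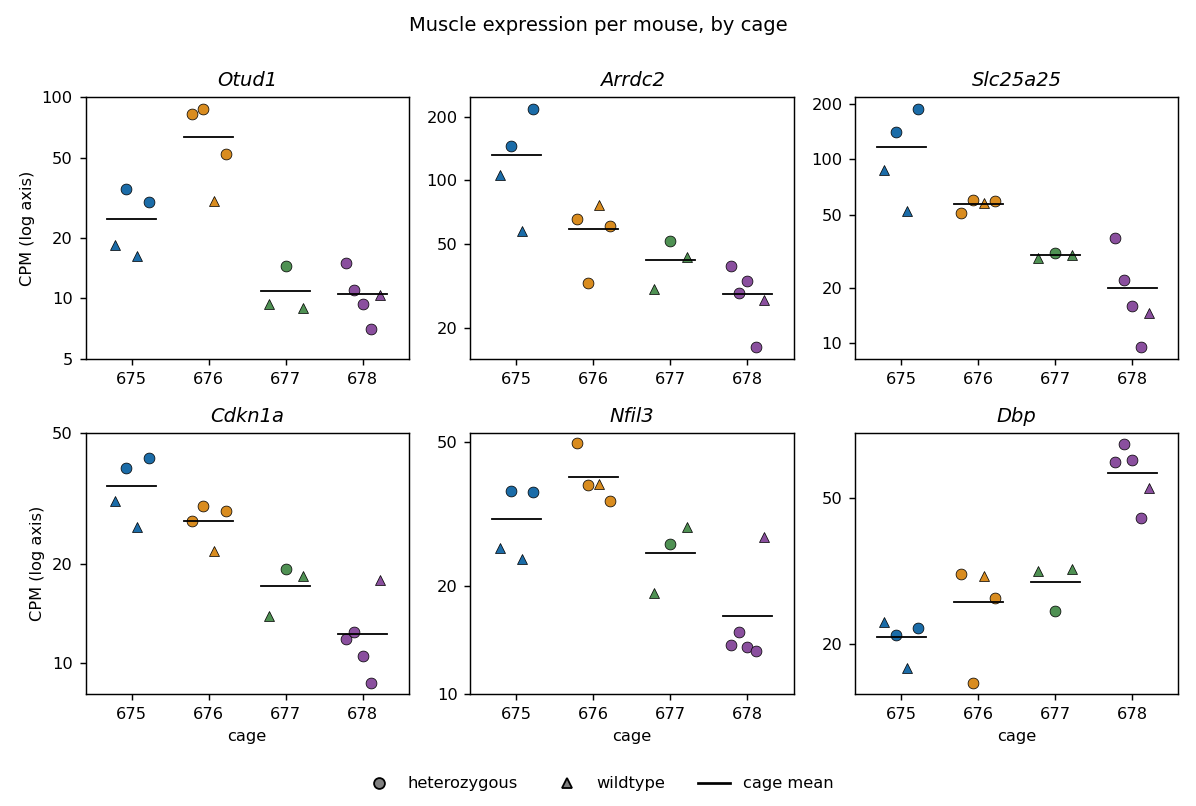
CPM of 6 genes in each of the 16 mice (log axis), by cage, with circles for *Npr1*+/-, triangles for *Npr1*+/+ and a line at the cage mean. *Otud1* is highest in cage 676 (30.7 to 87.0 CPM), *Arrdc2* and *Slc25a25* in cage 675, *Cdkn1a* separates cages 675 and 676 from cages 677 and 678, and *Nfil3* is low and *Dbp* high in cage 678.

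*Arrdc2* and *Slc25a25* shared a pattern in which cage 675 was highest. *Arrdc2* (ENSMUSG00000002910, chr8:70835129-70839660), an alpha-arrestin of the family that marks membrane proteins for ubiquitination, stood at 106, 145, 57.6 and 218 CPM in cage 675. It was at 65.9, 32.5, 76.6 and 60.5 CPM in cage 676, at 30.4, 51.7 and 43.3 CPM in cage 677 and at 39.0, 29.3, 33.2, 16.1 and 26.9 CPM in cage 678. Replicates 1, 2 and 4 of cage 675 lay above every other mouse, while its replicate 3 fell inside the range of cage 676. The difference of cage 675 was 1.84 ± 0.26 (adjusted p = 0.031) and that of cage 678 was -1.55 ± 0.29 (adjusted p = 0.077). *Slc25a25* (ENSMUSG00000026819, chr2:32414487-32451422) encodes a calcium-regulated carrier that exchanges ATP-Mg for phosphate across the inner mitochondrial membrane. It was at 87.1, 141, 52.3 and 187 CPM in cage 675, and at 50.9, 59.7, 57.9 and 58.9 CPM in cage 676. It was at 29.1, 31.0 and 30.0 CPM in cage 677 and at 37.5, 21.95, 15.97, 9.51 and 14.5 CPM in cage 678. All 8 mice of cages 675 and 676 again lay above all 8 of cages 677 and 678. Cage 675 was higher by 1.84 ± 0.27 (adjusted p = 0.031), and the difference of cage 678, -1.71 ± 0.31, missed the threshold (adjusted p = 0.067). Each of the 2 differences of cage 675 passed in 8 of 16 fits leaving out 1 mouse.

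*Cdkn1a* (ENSMUSG00000023067, chr17:29090976-29100722) encodes the cell cycle inhibitor p21, which muscle fibres raise under several kinds of stress. Its values were 31.0, 39.1, 25.8 and 41.7 CPM in cage 675 and 27.1, 30.1, 21.9 and 28.9 CPM in cage 676. They were 13.9, 19.3 and 18.4 CPM in cage 677 and 11.8, 12.4, 10.5, 8.70 and 17.9 CPM in cage 678. The 8 mice of the first pair of cages did not overlap with the 8 of the second. Cage 675 was higher by 1.06 ± 0.17 (adjusted p = 0.042), and the difference of cage 678 was -1.20 ± 0.19 (adjusted p = 0.034). The call in cage 675 held in 5 and that in cage 678 in 2 of 16 fits that left out 1 mouse.

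Cage 675 against the other 3 gave 5 genes higher (0.0349%) and none lower (0.00%) at the adjusted threshold, and 1744 higher (12.2%) and 688 lower (4.80%) at an unadjusted p under 0.05. Besides *Arrdc2*, *Slc25a25* and *Cdkn1a*, these were *Ddit4* and *Arrdc3*. *Ddit4*, an inhibitor of the growth kinase complex mTORC1, was at 21.98, 49.6, 11.2 and 57.4 CPM in cage 675, against 8.99 to 21.2 CPM in cage 676, 7.37 to 10.3 CPM in cage 677 and 5.87 to 10.9 CPM in cage 678 (difference of 1.75 ± 0.28, adjusted p = 0.042). Replicates 2 and 4 of cage 675, both *Npr1*+/-, were the highest 2 mice, and replicate 3 was inside the range of cage 676. *Arrdc3*, a second alpha-arrestin, was at 62.8, 84.5, 65.5 and 87.2 CPM in cage 675. It did not exceed 51.2 CPM in any mouse of the other cages, so cage 675 stood clear of them (difference of 1.08 ± 0.17, adjusted p = 0.042). Of the 16 fits leaving out 1 mouse, *Arrdc3* passed in 6 and *Ddit4* in 5. Of all genes tested, 10 were higher in every mouse of cage 675 than in every other mouse (0.0698%) and 2 were lower (0.0140%).

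The count for cage 675 depended on the model and on single mice. With cage alone in the model no gene passed, and with cage and the genotype label 1 passed. DESeq2 with both covariates gave 266 genes, 231 higher and 35 lower. None passed with library number as a covariate, where the adjusted p of the 5 genes lay between 0.814 and 0.837. Their differences in that fit were 1.58 for *Arrdc2*, 1.61 for *Slc25a25*, 1.56 for *Ddit4*, 0.83 for *Arrdc3* and 1.13 for *Cdkn1a*. What the library number stands for is not stated in the labels, and its part was not tested apart from this fit. None passed in limma-voom (0.0601 to 0.0974) or among *Npr1*+/- mice alone. The count of genes higher at an unadjusted p under 0.05 was 273 with cage alone, 272 without replicate 4 and 3153 without replicate 2. Without replicate 2, 3827 genes passed the adjusted threshold (2221 higher and 1606 lower), and no gene passed in 8 of the 16 fits leaving out 1 mouse, among them those without replicate 1 or replicate 4 of cage 675 and the other 6 without a mouse of another cage. Replicate 2 weighed 40.1 g, and the other mice of that cage weighed between 46.2 and 54.0 g.

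Cage 676 against the other 3 gave 1 gene higher, *Otud1* (0.00698%), and none lower (0.00%). At an unadjusted p under 0.05 there were 451 genes higher (3.15%) and 336 lower (2.34%). With cage alone in the model there were 703 higher (4.91%) and 883 lower (6.16%). These were the most of any cage in that fit, where cage 675 had 273 higher and 173 lower. Cage 676 had the most genes whose values stood apart, with 39 higher in each of its 4 mice than in every other mouse (0.272%) and 30 lower (0.209%). The cages differ in size, which changes how readily values stand apart. Among the genes nearest the threshold was *Ier5*, an immediate early gene linked to the heat shock response. *Ier5* was at 21.6, 24.9, 13.6 and 19.1 CPM in cage 676 and no higher than 12.9 CPM in the other 12 mice, so the cages did not overlap (difference of 1.04 ± 0.19, adjusted p = 0.28). *Sdc4*, a heparan sulphate proteoglycan of satellite cells and other cells, was at 31.1, 24.99, 28.3 and 30.8 CPM there and at most 23.8 CPM elsewhere (0.73 ± 0.16, adjusted p = 0.75). In the other direction, *Flvcr1*, a haem and choline transporter, was at 6.44, 7.20, 10.4 and 9.95 CPM in cage 676 and between 12.2 and 40.3 CPM elsewhere (-1.14 ± 0.25, adjusted p = 0.75).

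The library of replicate 3 of cage 676 also held transcripts made chiefly by liver cells, which the other 15 libraries had few or none of. *Alb* had 1559 counts there and at most 19 elsewhere, *Serpina3k* 254 and at most 6, and *Ttr* 166, *Fabp1* 157, *Apoa1* 149 and *Fgg* 96 with a count of 0 in the other 15 libraries. None of these 6 passed the filter on low counts. *Apoc1*, an apolipoprotein gene, did, with 139 counts there and at most 46 elsewhere. Their part in the results of cage 676 was not tested. *Otud1* was lowest of its cage in that mouse.

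Cage 677 against the other 3 gave no gene in either direction at the adjusted threshold (higher 0.00%, lower 0.00%), in edgeR and in every alternative fit, limma-voom and DESeq2 included. At an unadjusted p under 0.05 it had 89 genes higher (0.621%) and 127 lower (0.886%), and this was the smallest cage, with 3 mice. Every mouse of cage 677 was higher than every other mouse in 9 genes (0.0628%) and lower in 7 (0.0488%). With 3 mice, values stand apart more readily than in a larger cage, so little is read from such genes here. *Cnn1*, a contractile protein of smooth muscle, was at 7.68, 6.75 and 6.43 CPM in cage 677 and no higher than 6.19 CPM elsewhere (0.66 ± 0.21, adjusted p = 0.9996). *Hspa1a*, the inducible heat shock protein gene, ranged from 0.425 to 0.657 CPM in cage 677 and from 0.683 to 2.11 CPM in the other 13 mice (-1.20 ± 0.39, adjusted p = 0.9996).

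Cage 678 against the other 3 gave 1 gene higher (0.00698%) and 6 lower (0.0419%). These were *Dbp*, higher, and *Otud1*, *Cdkn1a*, *Klf4*, *Nfil3*, *Timp4* and *Fam107a*, lower. At an unadjusted p under 0.05 there were 378 higher (2.64%) and 305 lower (2.13%). The cage held 5 genes above (0.0349%) and 7 below (0.0488%) every other mouse. With cage alone in the model, *Dbp* and *Fam107a* kept the call (edgeR, adjusted p = 0.00483 and 0.0214). The others lost it (adjusted p from 0.0765 to 0.45). No gene passed in 9 of the 16 fits leaving out 1 mouse.

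*Dbp*, the D-box activator that the clock drives directly, was at 62.9, 70.1, 63.4, 44.1 and 53.2 CPM in cage 678. In the other 3 cages it ranged from 15.6 to 32.05 CPM, so each of the 5 mice of cage 678 stood above all 11 others (difference of 1.22 ± 0.19, adjusted p = 0.034). *Nfil3*, the repressor that binds the same element, was at 13.7, 14.9, 13.5, 13.2 and 27.4 CPM in cage 678. It was at 49.7, 37.9, 38.2 and 34.2 CPM in cage 676, and between 19.0 and 36.6 CPM in the remaining 2 cages. Replicate 5 of cage 678, the *Npr1*+/+ mouse of that cage, was inside the range of cages 675 and 677, and the 4 *Npr1*+/- mice were below every other mouse (difference of -1.15 ± 0.19, adjusted p = 0.034). *Dbp* passed in 4 and *Nfil3* in 2 of the 16 fits that left out 1 mouse.

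*Klf4*, a transcription factor of the immediate early class, was at 10.9, 8.99, 10.01, 6.10 and 7.10 CPM in cage 678. It was at 13.9, 29.1, 14.4 and 43.0 CPM in cage 675, 22.8, 19.4, 15.9 and 29.5 CPM in cage 676 and 8.23, 14.6 and 11.2 CPM in cage 677. As for *Cdkn1a*, cages 677 and 678 overlapped with each other and, for replicate 2 of cage 677 alone, with cage 675 (difference of cage 678 -1.36 ± 0.22, adjusted p = 0.034). *Timp4*, an inhibitor of matrix metalloproteinases, was at 46.6, 37.6, 43.2, 56.4 and 72.5 CPM in cage 678 and between 74.3 and 109 CPM in the other 11 mice (-0.95 ± 0.15, adjusted p = 0.034). *Fam107a*, an actin-associated protein gene, ranged from 2.28 to 3.58 CPM in cage 678 and from 4.47 to 7.37 CPM elsewhere (-1.14 ± 0.19, adjusted p = 0.043). For both genes every mouse of cage 678 lay below every other mouse. Of the 16 fits leaving out 1 mouse, *Klf4* and *Timp4* passed in 3 each and *Fam107a* in none. For all 11 genes called in a comparison of 1 cage with the others, the difference of the leading cage kept its sign in all 32 alternatives.

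Other genes with small p-values in the test of all 4 cages also set cage 675 or cage 678 apart in part. *Hecw2*, an E3 ubiquitin ligase gene, was at 9.26, 12.5, 8.05 and 11.1 CPM in cage 675 and at most 6.69 CPM in cages 676 and 678, with 6.47, 9.94 and 8.35 CPM in cage 677 (adjusted p = 0.078). *Ppp1r3c*, which brings a phosphatase to glycogen, ranged from 331 to 446 CPM in cage 678 and from 431 to 835 CPM elsewhere (adjusted p = 0.24). *Bcl2l1*, which protects against apoptosis, ranged from 10.5 to 14.3 CPM in cage 678 and from 15.9 to 27.3 CPM in cages 675 and 676 (adjusted p = 0.25). *Depp1*, a FOXO target, ranged from 12.4 to 33.7 CPM in cage 675 and from 6.92 to 9.03 CPM in cage 678 (adjusted p = 0.17). For *Bcl2l1* and *Depp1*, cages 675 and 678 did not overlap.

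**Figure D3:**
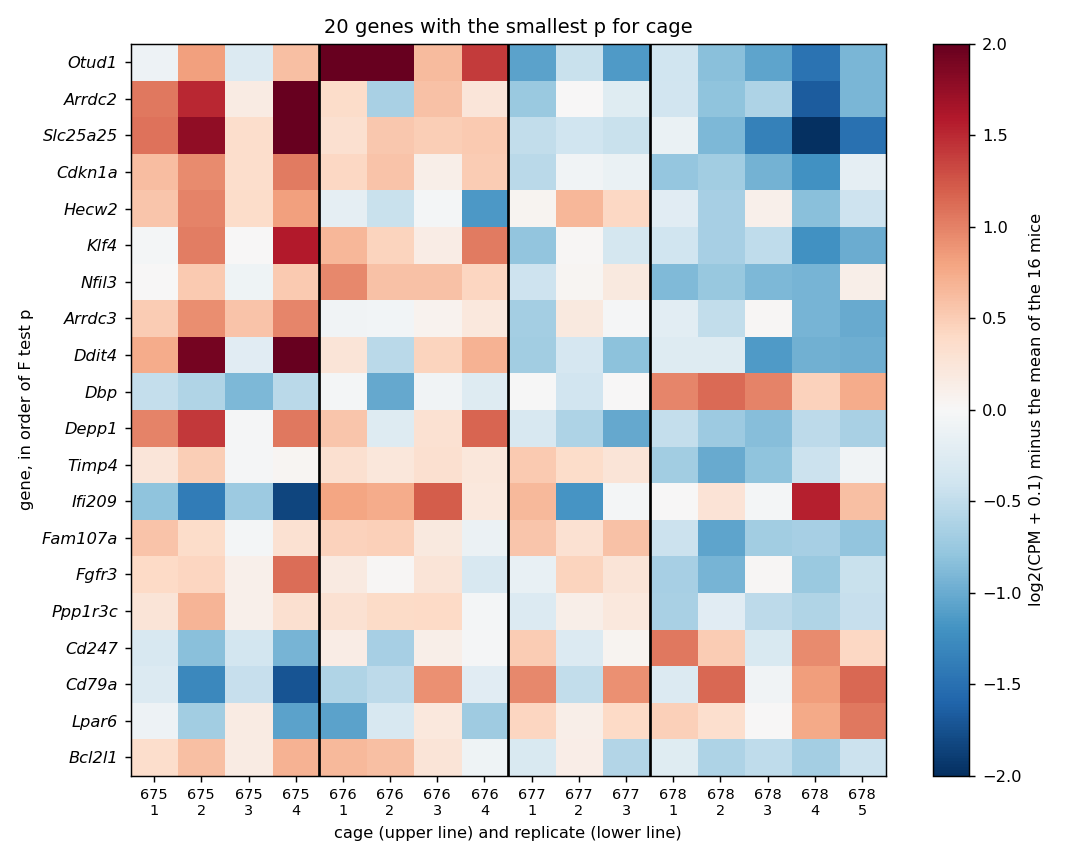
The 20 named genes with the smallest p for cage (rows, in order of p) in the 16 mice (columns, by cage and replicate), coloured by log2(CPM + 0.1) minus the mean of the 16 mice. *Cdkn1a* is above the mean in all 8 mice of cages 675 and 676 and below it in the other 8, and *Dbp* is above it in all 5 mice of cage 678.

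The immediate early genes as a list were highest in cages 675 and 676. Their summed level was 662, 918, 426 and 1197 CPM in cage 675 and from 591 to 879 CPM in cage 676, against 376 to 533 CPM in cage 677 and 326 to 561 CPM in cage 678. Replicate 3 of cage 675 was inside the ranges of cages 677 and 678, and the other 7 mice of cages 675 and 676 were above both. Of 25 tested, 13 had an unadjusted p under 0.05 in the test of all 4 cages, against 7.36% of all genes, and none passed the adjusted threshold in that test. In cage 675, 13 were higher and none lower at an unadjusted p under 0.05, against 12.2% higher and 4.80% lower over all genes. In cage 676, 6 were higher (3.15% of all genes) and none lower, in cage 677 none were higher and 4 lower (0.886%), and in cage 678 none were higher and 9 lower (2.13%). The median difference was 0.51 in cage 675, 0.41 in cage 676, -0.44 in cage 677 and -0.47 in cage 678, where the median over all genes lay between -0.02 and 0.02. All 25 had a negative difference in cage 678. The count of 13 lay between 11 and 15 in every alternative fit (21 to 25 members tested), with cage alone giving 11. The list was chosen with results of these data known, so these counts describe it and no test was made of it.

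Members of that list differed in which cage was highest. *Gadd45g*, a stress sensor gene, was at 60.5, 129, 42.8 and 120 CPM in cage 675, at 47.5, 16.7, 40.7 and 97.6 CPM in cage 676, at 17.4, 15.5 and 14.6 CPM in cage 677 and between 12.8 and 44.7 CPM in cage 678 (difference of cage 675 1.599 ± 0.33, adjusted p = 0.19). *Klf2*, a transcription factor of endothelial and other cells, was at 23.997, 39.995, 12.4 and 47.6 CPM in cage 675 and between 6.63 and 19.0 CPM in cage 678 (1.29 ± 0.28, adjusted p = 0.19). In both genes replicates 2 and 4 of cage 675 were high and replicate 3 was the lowest of its cage. *Atf3*, a stress-induced transcription factor, was at 35.7, 30.5, 7.31 and 14.4 CPM in cage 676 and did not exceed 12.0 CPM elsewhere (1.62 ± 0.45, adjusted p = 0.83). *Nr4a3*, an orphan nuclear receptor gene that contraction induces, ranged from 0.756 to 54.5 CPM within cage 676 and from 0.874 to 28.3 CPM in the other mice, with an SE of 1.01 on the difference of cage 676 of 2.14. *Egr1*, *Junb* and *Fosb* had p-values of 0.61 or more in the test of all 4 cages, before adjustment. *Fos* was highest in replicate 4 of cage 676 at 38.9 CPM and lowest in replicate 3 of cage 675 at 1.58 CPM. *Gadd45g*, *Klf2*, *Atf3*, *Fos* and the members without a value above were named after their values were seen, as were all genes named only for standing apart from the other cages.

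**Figure D4:**
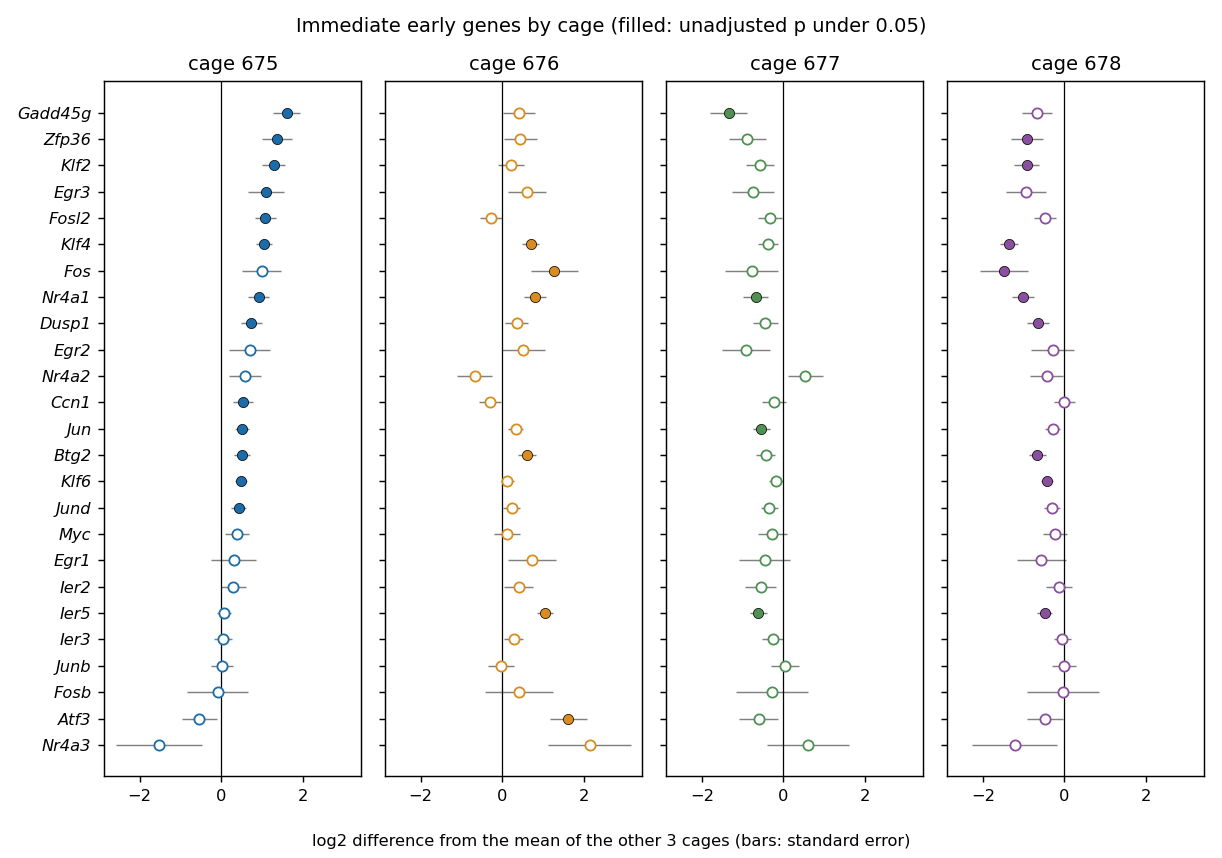
Difference of each cage from the other 3 (log2, horizontal axis, 1 panel a cage) for the 25 immediate early genes (rows), with bars for the SE and filled points for an unadjusted p under 0.05. The points of cage 675 lie mostly right of 0 (13 filled), and all 25 of cage 678 lie left of it (9 filled).

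Of 16 glucocorticoid-responsive genes, 5 had an unadjusted p under 0.05 in the test of all 4 cages (4 with cage alone), against 7.36% and 3.95% of all genes, and *Cdkn1a* passed after adjustment. The other 4 were *Ddit4*, *Errfi1*, *Tsc22d3* and *Glul*. *Tsc22d3*, which encodes the anti-inflammatory protein GILZ, ranged from 182 to 288 CPM in cage 675, from 191 to 260.2 CPM in cage 676, from 158 to 171 CPM in cage 677 and from 115 to 196 CPM in cage 678 (adjusted p = 0.66). *Errfi1*, an inhibitor of EGF receptor signalling, was at 69.8, 50.3, 31.6 and 120 CPM in cage 675 and between 18.5 and 40.9 CPM in the other 12 mice (adjusted p = 0.52). *Fkbp5*, a widely used readout of glucocorticoid action, ranged from 18.4 to 66.4 CPM within cage 678 alone (unadjusted p = 0.55). *Zbtb16* and *Klf9*, direct targets of the receptor, had unadjusted p-values of 0.57 and 0.33.

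Among clock genes, *Dbp* and *Nfil3* passed in cage 678 and the other members did not pass in any cage. The summed level of the 13 evening-arm genes was 1199, 1212, 1373, 975 and 1113 CPM in cage 678, and from 835 to 1100.0 CPM in the other 11 mice, so 4 of the 5 mice lay above every other mouse. In cage 678, 10 of the 13 differences of the evening arm were positive (median 0.17) and 5 of the 6 of the morning arm were negative (median -0.40). Over all 14331 genes, 6738 were positive and 7593 negative in that cage. At an unadjusted p under 0.05, 2 evening-arm genes were higher there and 2 lower, against 2.64% and 2.13% of all genes. In the morning arm none were higher and 2 lower. In the test of all 4 cages, *Dbp* and *Per1* of the 13 evening-arm genes had an unadjusted p under 0.05 (5 of 13 with cage alone). Of the 6 of the morning arm, *Nfil3* and *Arntl* did (1 of 6 with cage alone), against 7.36% and 3.95% of all genes. *Arntl*, the core activator BMAL1, ranged from 21.4 to 34.8 CPM in cage 675 and from 12.2 to 24.2 CPM in cage 678 (difference of cage 678 -0.67 ± 0.18, adjusted p = 0.52). *Per1*, a clock repressor that glucocorticoids and activity also raise, was at 25.2, 50.8, 20.05 and 105 CPM in cage 675 and between 10.3 and 41.2 CPM in cage 678. *Nr1d1*, the clock repressor REV-ERB alpha, ranged from 67.0 to 247 CPM in cage 678 and from 31.8 to 152 CPM elsewhere (unadjusted p = 0.36), and the sign of its difference in cage 675 (0.50 ± 0.31) turned when body weight was not in the model. *Per2* ranged from 4.60 to 12.8 CPM (unadjusted p = 0.37). Beside the 1.22 ± 0.19 of *Dbp*, the difference of cage 678 was 0.02 ± 0.30 for *Nr1d1*, 0.24 ± 0.25 for *Per2* and 0.21 ± 0.12 for *Tef*, and these differences were not tested against each other.

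The remaining lists are given more briefly. Of 17 lipogenic and insulin-responsive genes, 10 were higher in cage 675 at an unadjusted p under 0.05 against 12.2% of all genes, but 1 with cage alone (1.90% of all genes) and none without replicate 4 of that cage. In that mouse *Fasn*, the fatty acid synthase, was at 35.1 CPM against 4.13 to 6.43 CPM in its cage mates, and *Acacb*, which makes the malonyl-CoA that holds back fat oxidation, was at 435 CPM against 100.1 to 209 CPM. The myosin genes showed the same mice. *Myh2*, the myosin of type IIA fibres, was at 1139 CPM in replicate 4 of cage 675, 910 CPM in replicate 3 of cage 678 and 519 CPM in replicate 2 of cage 677, and did not exceed 278 CPM in the other 13. *Myh4*, the myosin of type IIB fibres, was at 52542, 58769 and 29384 CPM in those 3 mice and at most 20979 CPM in the others. These are the 3 highest scores on the first component, in 3 different cages. Of 15 fast fibre genes 3 had an unadjusted p under 0.05 in the test of all cages and none did with cage alone, and of 15 slow fibre genes 4 and 1. None of 27 oxidative phosphorylation, 15 adipocyte and 10 hypoxia genes had an unadjusted p under 0.05 in the test of all 4 cages. Against 7.36% of all genes, the count was 1 of 20 for mitochondrial translation, 1 of 13 each for muscle atrophy and the integrated stress response, 1 of 15 for NRF2 targets, 1 of 12 for the neuromuscular junction, 2 of 18 for glycolysis and glycogen, 2 of 16 for fasting, 3 of 16 for heat shock, 4 of 23 for interferon-induced genes (2 with cage alone) and 2 of 9 for embryonic and cardiac isoforms. In cage 678, 20 of the 23 interferon-induced genes had a positive difference (median 0.26), and 6 were higher at an unadjusted p under 0.05 and none lower, against 2.64% and 2.13% of all genes (with cage alone 4, against 1.55%). Their summed level was between 157 and 210.3 CPM in cage 678 and between 123 and 211 CPM in cages 676 and 677, with which it overlapped, while the mice of cage 675 lay between 137 and 155 CPM. In cage 676, 4 of the 16 heat shock genes were higher, against 3.15% of all genes.

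**Figure D5:**
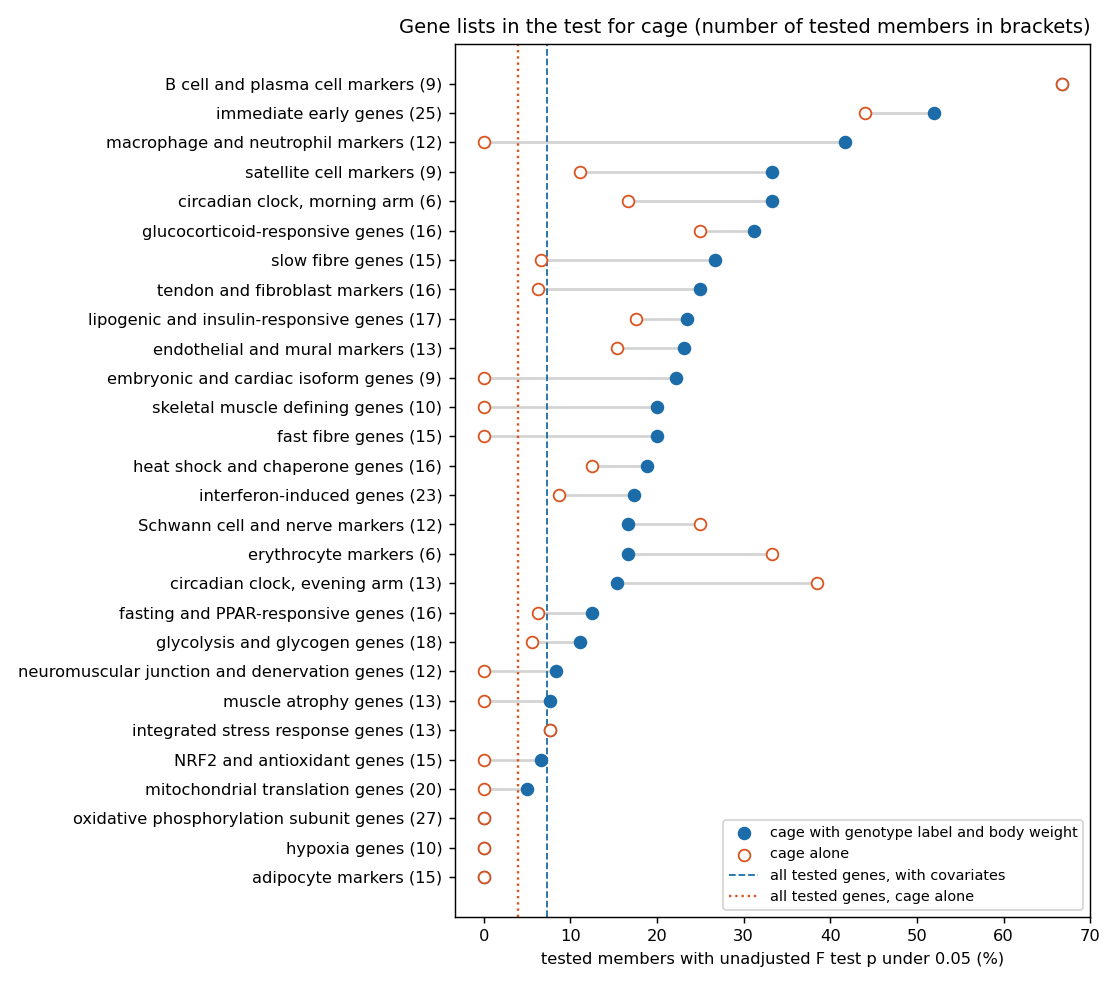
Share of the tested members of each gene list with an unadjusted p under 0.05 in the test of all 4 cages (horizontal axis, %), with genotype label and body weight as covariates (filled) and for cage alone (open), and dashed and dotted lines for all genes (7.36% and 3.95%). Immediate early genes stand at 52% and 44%, while macrophage and neutrophil markers stand at 41.7% with the covariates and at 0% without.

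Markers of other cell types in the muscle were summed and counted in the same way, and none passed the adjusted threshold in any comparison of cages. In bulk tissue, fewer cells of a type and less RNA per cell cannot be told apart. Of 9 tested B cell and plasma cell markers, 6 had an unadjusted p under 0.05 in the test of all cages (6 with cage alone), against 7.36% and 3.95% of all genes. In cage 676, 4 were higher at that threshold (3.15% of all genes), in cage 678, 3 were higher (2.64%), in cage 675, 3 were lower (4.80%) and in cage 677, 2 were lower (0.886%). The summed level of the 13 markers ranged from 186 to 211 CPM in cage 675, from 229 to 470.0 CPM in cage 676, from 150 to 236 CPM in cage 677 and from 139 to 332 CPM in cage 678. The defining marker *Cd79a* was at the edge of detection, with 1 to 26 counts a library. The antigen presentation gene *Cd74* was at 80.3, 39.5, 55.3 and 56.6 CPM in cage 676 and between 27.0 and 47.0 CPM elsewhere (0.74 ± 0.19, adjusted p = 0.83). The levels of cage 676 were thus the highest for this list but overlapped with those of cages 677 and 678.

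Macrophage and neutrophil markers summed to between 169 and 199 CPM in cage 676, between 84.4 and 127 CPM in cage 675, between 71.0 and 136 CPM in cage 677 and between 60.0 and 251 CPM in cage 678. Of 12 tested, 5 had an unadjusted p under 0.05 with the covariates and none with cage alone, against the same 7.36% and 3.95%. In cage 675, 11 of the 12 had a negative difference and 6 were lower at an unadjusted p under 0.05 (4.80% of all genes), and in cage 678, 11 had a positive difference and 5 were higher (2.64%), but none of either with cage alone, where 5 were higher in cage 676 (4.91% of all genes in that fit). *Lyz2*, lysozyme of myeloid cells, was at 66.5, 66.0, 79.2 and 79.9 CPM in cage 676 and between 17.2 and 105 CPM in cage 678 alone. *Ccr2*, the receptor that brings monocytes into tissue, ranged from 1.77 to 12.7 CPM in cage 678. The lowest and highest of both genes were replicates 3 and 4 of cage 678, the 2 ends of the first component. Of the T and NK cell markers only *Cd3e* of 14 could be tested, with 17 to 69 counts a library. Against the same background, the count in the test of all cages was 3 of 13 for endothelial and mural markers (2 with cage alone), 4 of 16 for tendon and fibroblast, 3 of 9 for satellite cell, 2 of 12 for Schwann cell, 1 of 6 for erythrocyte and 2 of 10 for skeletal muscle defining genes. Schwann cell and nerve markers summed to between 223 and 259 CPM in cage 677 and to at most 209 CPM in the other cages, so cage 677 stood clear of them, and 4 of the 12 were higher there at an unadjusted p under 0.05 (0.621% of all genes). The part of these cell types in the differences of *Otud1*, *Cdkn1a* and the other called genes was not tested.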

How the data were processed

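Skeletal muscle RNA of 16 mice was sequenced, 1 library a mouse. The authors aligned paired reads to GRCm38 with STAR 2.7.2b and the GENCODE M24 gene model and deposited raw fragment counts per gene from featureCounts (1.6.4 per the labels). The gene length column was not used. From these counts, genes were kept by edgeR's filterByExpr on the genotype label (14331 of 55471), scaled by TMM and tested with glmQLFit and glmQLFTest (robust = TRUE, legacy = TRUE; R 4.3.3, edgeR 4.0.16) on cage, genotype label and body weight, with 6 coefficients and 10 residual degrees of freedom. Adjustment followed Benjamini and Hochberg. Alternatives used limma 3.58.1 and DESeq2 1.42.0. Body weight, library totals and genotype labels were compared between cages by exact permutation tests. Named genes are, leaving out numbered gene models, the 20 with the smallest p for cage, the 3 higher and 3 lower with the smallest p for each cage, up to 3 passing genes or else the 1 with the smallest p of each of 29 lists, and *Npr1*. Other genes were chosen after their values were seen. Some of the genes that this rule names are left out of the text. Members and lists were chosen with earlier results of these data known. Mice of 1 cage share that cage, so p-values measure the spread between mice and not between repeated cages. Library totals set the precision of low counts. Upstream windows and start sites come from RefSeq on GRCm38.p6, and all 11 genes searched were matched. The scripts were tested on simulated counts.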

Additional observations from a re-analysis of the deposited data

Results flagged for a closer look

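Within cages of 4 or 5 mice, Dixon's criterion at the 95% level marked 11 of 231 groups of values, where chance gives about 12. In cage 678, replicate 3 was highest for *Foxo1* (35.1 CPM, the others between 7.19 and 10.4), *Kdr* (104 CPM, 19.2 to 29.7), *Flvcr1* (40.3 CPM, 19.98 to 23.1) and *Sqle* (3.09 CPM, 1.39 to 1.74), and this lightest mouse also had the highest score on the first component. Replicate 5 of cage 678 was highest for *Nfil3* (27.4 CPM, the others between 13.2 and 14.9). In cage 675, replicate 4 was highest for *Myh7*, the slow myosin (28.6 CPM, 0.323 to 0.453), and replicate 2 for *Sdc4* (23.7 CPM, 18.6 to 19.3). In cage 676, replicate 2 was lowest for *Tsc22d3* (191 CPM, 252 to 260.2) and highest for *Pmp22*, a myelin gene (71.6 CPM, 44.6 to 48.3). Replicate 1 of cage 676 was lightest (45.3 g, 47.7 to 48.1 g), and replicate 3 had the largest library total (27250712 counts, 15922198 to 16794123). Causes were not tested.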

How the results depend on the processing

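The test of all 4 cages, with 4 genes, gave 78 in DESeq2, 23 without a filter on low counts (13 of them not past the filter, each with 41 to 254 counts in replicate 3 of cage 676 and at most 6 elsewhere, such as *Ttr* and *Apoa1*), 1 with limma-voom, with library number as a covariate, with at least 10 counts in every mouse and without the mice lowest and highest on the first component in cage 678 (chosen after seeing the data), 0 with library size only and among *Npr1*+/- mice, 1055 at an unadjusted p under 0.05, and 0 to 869 leaving out 1 mouse. Cage 675, with 5 genes, gave 266 in DESeq2 (231 higher, 35 lower), 11 without the filter, 3 with library size only, 1 with cage and genotype label, 0 with cage alone, library number, limma-voom and *Npr1*+/- mice, 2432 unadjusted, and 0 to 3827 leaving out 1 mouse. Cage 676, with 1 gene, gave 8 without the filter, 7 in DESeq2, 0 with library number and *Npr1*+/- mice, 787 unadjusted, and 1 to 2 leaving out 1 mouse. Cage 677 gave 216 unadjusted and 0 otherwise. Cage 678, with 7 genes, gave 43 in DESeq2, 11 with library number, 4 with cage and genotype label, 2 with cage alone and without the 2 mice named above, 0 among *Npr1*+/- mice, 683 unadjusted, and 0 to 7 leaving out 1 mouse. The exact p for library totals was 0.119 by ranks and 0.00336 to 0.236 leaving out 1 mouse, and for body weight 0.0224 to 0.308. *Nr1d1* in cage 675 turned to -0.083 with cage alone and with cage and genotype label (0.50 with both covariates). Signs were followed only for the cage with the smallest p of each gene. In that cage the other named genes kept their sign in each alternative that could be fitted. Thinning every library to the smallest total left each count within 1.5 times. For each of these, the cause was not tested. No paired analysis was possible because the labels number mice within genotype labels and a number that recurs in 2 cages marks different animals.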

Other observations

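In cage 676, *Neat1*, a nuclear long non-coding RNA, ranged from 113 to 213 CPM and in the other 12 mice from 246 to 1480.0 CPM, with the highest values in replicate 4 of cage 675 and replicate 3 of cage 678. *Txnip*, which glucose raises, ranged from 297 to 461 CPM in cage 676 and from 481 to 942 CPM elsewhere. *Rhoa*, a GTPase of the cytoskeleton, was the other way round, at 104 to 128 CPM in cage 676 and 79.8 to 102 CPM elsewhere. None of these 3 genes, chosen after their values were seen, passed the adjusted threshold for cage (*Neat1* 0.58, *Txnip* and *Rhoa* 0.66, edgeR). *Chac1*, a glutathione-degrading enzyme of the integrated stress response, ranged from 164 to 247 CPM in cage 678 and from 43.4 to 98.4 CPM in cage 675, with cages 676 and 677 reaching 216 and 179 CPM (adjusted p = 0.66).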
